A study of Mus musculus with 16 samples.

Results

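Syn1, Sv2a and Bsn encode 3 proteins of the nerve terminal, and their transcripts were followed across 4 genotypes of neonatal mouse brain. The members were the spots that the platform annotation names Syn1, Sv2a or Bsn: 4 of the 28704 spots on the array, 1 each for Syn1 and Sv2a and 2 for Bsn. The genes were chosen by their differences between the lines and WT on these same arrays, so their own values are given as a description without a test. The study profiled 4 groups of 4 samples each: Cx43 null, Cx43 heterozygous and Cx32 null neonatal brain, all on a C57BL background, and wild-type (WT) neonatal brain of C57BL/6j mice. Astrocytes couple to each other mainly through connexin 43, encoded by Gja1, whose complete loss is known to be lethal around birth. Connexin 32, encoded by Gjb1, forms gap junctions in oligodendrocytes and in the Schwann cells of peripheral nerve. The labels do not state how the alleles were made, nor whether a sample is 1 brain or a pool, so an SD or a p-value measures the spread between these samples, which may be partly technical.

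At a nerve terminal, transmitter is stored in synaptic vesicles that dock at the active zone, fuse with the membrane when calcium enters, and are then taken back by endocytosis. Synapsin 1 is a phosphoprotein on the outer face of the vesicle that ties vesicles to each other and to actin, and so holds a reserve pool. Sv2a is a glycoprotein that spans the vesicle membrane and is the binding site of the antiepileptic drug levetiracetam. Bassoon, the product of Bsn, is a very large scaffold protein of the active zone, where it helps to order the release sites. In rodent brain most synapses form after birth, so neonatal tissue is early in the build-up of these proteins.

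The promoters of the 3 genes are shown because the genes serve one structure while their array values lay on opposite sides of WT. Each line below holds the 250 bases before the RefSeq transcription start site (build GRCm38.p6), read 5′ to 3′ on the strand of the gene: Syn1 on the minus strand at chrX:20920919-20921168, Sv2a on the plus strand at chr3:96180977-96181226 and Bsn on the minus strand at chr9:108190384-108190633. Capitals mark the letters of a searched motif.
Syn1: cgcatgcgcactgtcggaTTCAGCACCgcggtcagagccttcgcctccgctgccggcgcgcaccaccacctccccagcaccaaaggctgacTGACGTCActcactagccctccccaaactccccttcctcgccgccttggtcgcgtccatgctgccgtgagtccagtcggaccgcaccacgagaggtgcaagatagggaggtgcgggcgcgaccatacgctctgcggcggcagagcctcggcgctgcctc
Sv2a: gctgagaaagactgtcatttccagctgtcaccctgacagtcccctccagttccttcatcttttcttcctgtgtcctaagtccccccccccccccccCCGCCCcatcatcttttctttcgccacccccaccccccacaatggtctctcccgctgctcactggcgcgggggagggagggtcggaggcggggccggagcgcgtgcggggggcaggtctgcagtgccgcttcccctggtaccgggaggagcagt
Bsn: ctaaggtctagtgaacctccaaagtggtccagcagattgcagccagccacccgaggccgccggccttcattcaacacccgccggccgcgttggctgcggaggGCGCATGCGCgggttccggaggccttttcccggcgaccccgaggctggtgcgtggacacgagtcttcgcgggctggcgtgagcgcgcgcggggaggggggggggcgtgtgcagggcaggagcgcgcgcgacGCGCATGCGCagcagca
In the Syn1 promoter the capitals mark the left part of the RE1 element, the site known to bind the neuronal gene repressor REST (TTCAGCACC, first base at -232 from the start site), and a cyclic AMP response element (TGACGTCA, at -159). In the Sv2a promoter they mark a GC box read on the other strand (GGGCGG, at -154). In the Bsn promoter they mark a pair of NRF1 sites (the half-site GCGCA followed directly by its reverse complement, at -148 and -17). Both strands were searched, and no marked motif overlaps another. Among 32851 mouse promoter windows of the same length, 0.301% held TTCAGCACC, 1.55% TGACGTCA, 0.782% the NRF1 site and 32.7% GGGCGG. None of the 3 windows held an E-box (CACGTG, 6.02% of windows), a TATA box (TATAAA, 12.4%) or a CCAAT box (CCAAT, 33.8%). A match describes the letters only.

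Each sample was hybridised on 1 array with 2 colours, against a reference made once for all arrays from adult spleen, stomach, lung, liver, kidney, heart, brain, aorta and gonads. Values are log2 ratios, read as brain over reference and centred on the median of each array, so 0 is the typical spot of that array. Neither the base of the logarithm nor which channel is the numerator is stated in the labels. Brain is the likely numerator, because neuron markers had a higher median than markers of the reference tissues on 16 of 16 arrays. The neuron list, which includes Tubb3 and Map2, had an array median of 1.95 to 2.66 over all arrays. Spots with a value numbered 21010 to 24819 per array, and precision is limited by having 4 arrays in a group.

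Some arrays stood apart. The array labelled Cx43 null replicate 1 had a median correlation over all spots of 0.887 with the WT arrays and of 0.857 with the other Cx43 null arrays. WT replicate 1 had a median correlation of 0.69 with the other WT arrays. The WT arrays had median correlations of 0.541 to 0.772 with the Cx43 heterozygous, 0.568 to 0.777 with the Cx32 null and 0.629 to 0.849 with the Cx43 null arrays. The heterozygous arrays had 0.851 to 0.887 with the Cx32 null arrays. The median SD over all transcripts was 0.39 in WT, 0.27 in Cx43 null, 0.20 in Cx43 heterozygous and 0.21 in Cx32 null brain. What sets the WT arrays apart was not tested. WT replicate 3 was taken from its title, although its channel label gives another number. The targeted gene Gja1 lay between -2.92 and -0.60 on the Cx43 null arrays, between -1.86 and -1.09 on the Cx43 heterozygous arrays, between -0.07 and 0.27 on the Cx32 null arrays and between 1.13 and 2.47 on the WT arrays. The highest Cx43 null value, -0.60, was that of replicate 1. No spot is named Gjb1.

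Syn1 was lowest in Cx43 heterozygous brain. Its log2 ratio was 1.41, 0.94, 0.88 and 0.87 on Cx43 null arrays 1 to 4, against 1.47, 1.69, 0.82 and 1.17 on WT arrays 1 to 4. These groups overlap, and null array 1 lies among the WT arrays while the other null arrays lie close together near the lowest WT array. On Cx43 heterozygous arrays 1 to 4 it was -0.35, -0.03, -1.27 and -0.93, so every heterozygous array lay below 0. They also lay below every WT array, as was the case for 17.4% of the 14292 transcripts tested. On Cx32 null arrays 1 to 4 it was 0.63, 0.30, 0.62 and -0.17, again below every WT array (14.6% of transcripts), with array 4 in the range of the heterozygous arrays. The group means were 1.02 ± 0.26 in Cx43 null, -0.64 ± 0.56 in Cx43 heterozygous, 0.34 ± 0.38 in Cx32 null and 1.29 ± 0.38 in WT brain (SD, n = 4 each). Relative to WT, the fitted log2 difference of Syn1 was -1.93 ± 0.27 (SE) in Cx43 heterozygous brain, a 3.82-fold lower level, and -0.95 ± 0.27 in Cx32 null brain, 1.93-fold lower. In Cx43 null brain it was -0.26 ± 0.27, and 0.02 under quantile scaling, so no direction is given for that line.

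Sv2a had the highest brain ratio of the 3 genes, and its WT mean exceeded that of 99.9% of the 8654 named genes tested. Its log2 ratio was 3.80, 2.05, 1.62 and 1.67 on Cx43 null arrays 1 to 4, against 3.36, 3.18 and 3.72 on WT arrays 2, 3 and 4 (WT array 1 has no value). Null array 1 lies above all WT arrays and the other null arrays lie well below them. On Cx43 heterozygous arrays 1 to 4 Sv2a was 1.69, 1.82, 1.77 and 1.61, and on Cx32 null arrays 1 to 4 it was 2.00, 1.86, 1.83 and 1.95. These 8 arrays fall within a narrow band, all below every WT array, as for 17.4% of transcripts in Cx43 heterozygous and 14.6% in Cx32 null brain. In Cx43 null brain, by contrast, array 1 keeps Sv2a out of the 6.26% of transcripts with every null array below every WT array. The group means were 2.29 ± 1.03 in Cx43 null, 1.72 ± 0.09 in Cx43 heterozygous, 1.91 ± 0.08 in Cx32 null (SD, n = 4 each) and 3.42 ± 0.28 in WT brain (n = 3). The fitted difference from WT was -1.13 ± 0.37 (SE) in Cx43 null, -1.70 ± 0.37 in Cx43 heterozygous and -1.51 ± 0.37 in Cx32 null brain, or 2.19-fold, 3.25-fold and 2.85-fold lower. Without Cx43 null replicate 1 the null difference was -1.64, and the mean of the other null arrays was 1.78 ± 0.24 (SD, n = 3).

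Bsn ran the other way and was lowest in WT brain. Averaged over its spots, Bsn had a log2 ratio of -0.34, 0.33, 0.25 and 0.58 on Cx43 null arrays 1 to 4 and of 0.47, 0.02, 0.52 and 0.31 on Cx43 heterozygous arrays 1 to 4. It was 0.16, 0.21, -0.09 and 0.24 on Cx32 null arrays 1 to 4, against -0.60, -0.52, -0.42 and -0.39 on WT arrays 1 to 4. Every array of every line lay above every WT array, though null array 1 cleared the highest WT array by little. Over all transcripts this was the case for 6.64% in Cx43 null, 13.8% in Cx43 heterozygous and 13.2% in Cx32 null brain, shares from which nothing is read since the genes were chosen on these contrasts. The group means were 0.20 ± 0.39 in Cx43 null, 0.33 ± 0.23 in Cx43 heterozygous, 0.13 ± 0.15 in Cx32 null and -0.48 ± 0.10 in WT brain (SD, n = 4 each). The fitted difference from WT was 0.68 ± 0.19 (SE) in Cx43 null, 0.81 ± 0.19 in Cx43 heterozygous and 0.61 ± 0.19 in Cx32 null brain, or 1.61-fold, 1.75-fold and 1.52-fold higher. Without Cx43 null replicate 1 the null difference was 0.87 and the mean of the other null arrays 0.38 ± 0.17 (SD, n = 3). The WT mean of Bsn was above that of 31.7% of named genes, and that of Syn1 above 89%.

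The 2 Bsn spots agreed in direction, and differed most in size in Cx32 null brain. Spot 14247 differed from WT by 0.52 ± 0.19 (SE) in Cx43 null, 0.75 ± 0.19 in Cx43 heterozygous and 0.36 ± 0.19 in Cx32 null brain, and spot 18984 by 0.87 ± 0.26, 0.88 ± 0.26 and 0.87 ± 0.26. On spot 14247 the values were -0.11 to 0.56 in Cx43 null, 0.13 to 0.72 in Cx43 heterozygous, -0.11 to 0.20 in Cx32 null and -0.60 to -0.07 in WT brain. The null and Cx32 null ranges there overlap the WT range at its upper end. On spot 18984 they were -0.57 to 0.59 in Cx43 null, -0.09 to 0.58 in Cx43 heterozygous, -0.08 to 0.43 in Cx32 null and -0.76 to -0.57 in WT brain (n = 3, since WT array 1 has no value on that spot). Here the lowest null array meets the top of the WT range. Over the 15 arrays with both spots, spot 18984 minus spot 14247 averaged -0.02 ± 0.36 (SD) in Cx43 null, -0.25 ± 0.27 in Cx43 heterozygous, 0.14 ± 0.21 in Cx32 null and -0.47 ± 0.17 in WT brain. Because WT array 1 rests on spot 14247 alone, its Bsn average is not of the same make as the others.

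**Figure D1:**
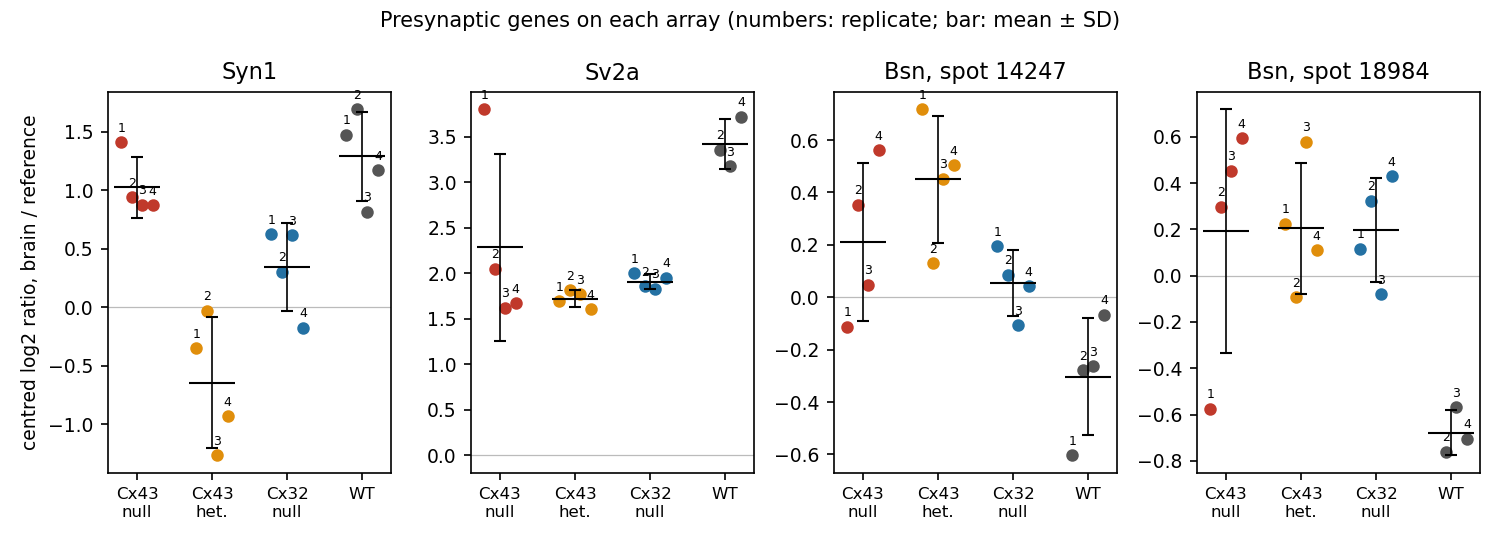
Centred log2 ratio of brain to reference (y axis) for the 4 spots of Syn1, Sv2a and Bsn, with 1 point per array numbered by replicate, in the order Cx43 null, Cx43 heterozygous, Cx32 null and WT; bars are the group mean and SD. Cx43 null array 1 sits with the WT arrays for Sv2a at 3.80, and the WT arrays are the lowest group on both Bsn spots.

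The order of the levels differed between the genes. For Syn1 it ran WT, Cx43 null, Cx32 null, Cx43 heterozygous from high to low. WT and Cx43 null ranges overlapped (difference of means 0.26), as did Cx32 null and Cx43 heterozygous ranges (0.99), while all Cx43 null arrays lay above all Cx32 null arrays (0.68), as for 4.34% of transcripts. For Sv2a the order was the same with all arrays. Only the last neighbours, Cx32 null and Cx43 heterozygous, had ranges apart (8.6% of transcripts have every Cx32 null array above every Cx43 heterozygous array). Their means differed by 0.19, with SDs of 0.08 and 0.09, and the fitted difference of heterozygous minus Cx32 null, -0.19 ± 0.34 (SE), was smaller than its error. The place of Cx43 null above Cx32 null in Sv2a rested on null replicate 1. Without it the null mean was 1.78 ± 0.24 (SD, n = 3), below the Cx32 null mean of 1.91. For Bsn the order was Cx43 heterozygous, Cx43 null, Cx32 null, WT, and the lines did not differ beyond their spread (differences of neighbouring means 0.13 and 0.08). Between the Cx43 lines, Syn1 was 1.67 ± 0.27 (SE) higher in null than in heterozygous brain, whereas Sv2a differed by 0.56 ± 0.34 and Bsn by -0.13 ± 0.19.

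**Figure D2:**
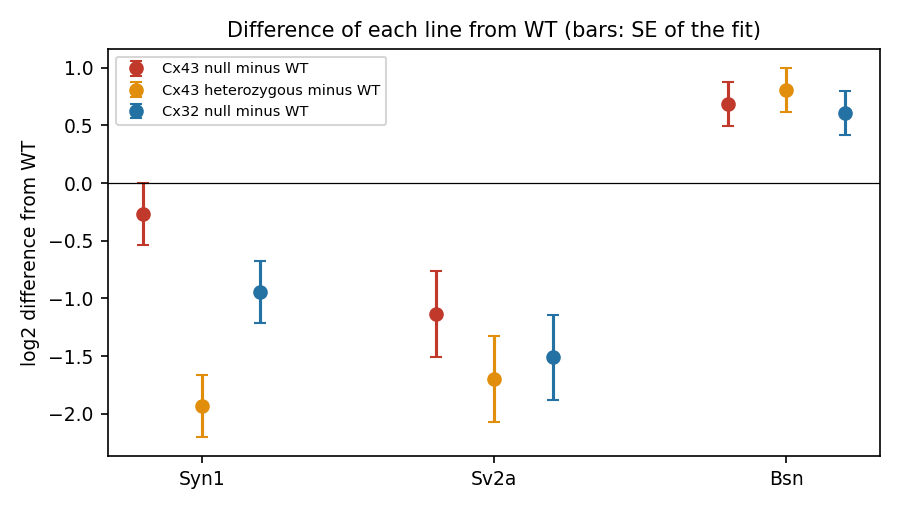
Fitted log2 difference from WT (y axis) of Syn1, Sv2a and Bsn in Cx43 null, Cx43 heterozygous and Cx32 null brain; bars are standard errors. Sv2a lies at -1.13, -1.70 and -1.51 and Bsn at 0.68, 0.81 and 0.61, while Syn1 spreads over -0.26, -1.93 and -0.95.

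The spread between arrays of a group also set the genes apart from each other. The 3 lines share the WT arrays, so their differences are not independent of each other. The SD of Sv2a over the 4 Cx43 null arrays was larger than that of 99.5% of named genes, whereas in Cx32 null brain it was larger than that of 6.93%. For Syn1 the SD over the Cx43 heterozygous arrays exceeded that of 95.9% of named genes. The SD of Bsn over the WT arrays exceeded that of 3.22%. That SD mixes WT array 1, read by spot 14247 alone, with averages of both spots. By spot, the WT SD was 0.22 on spot 14247 (n = 4) and 0.10 on spot 18984 (n = 3).

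**Figure D3:**
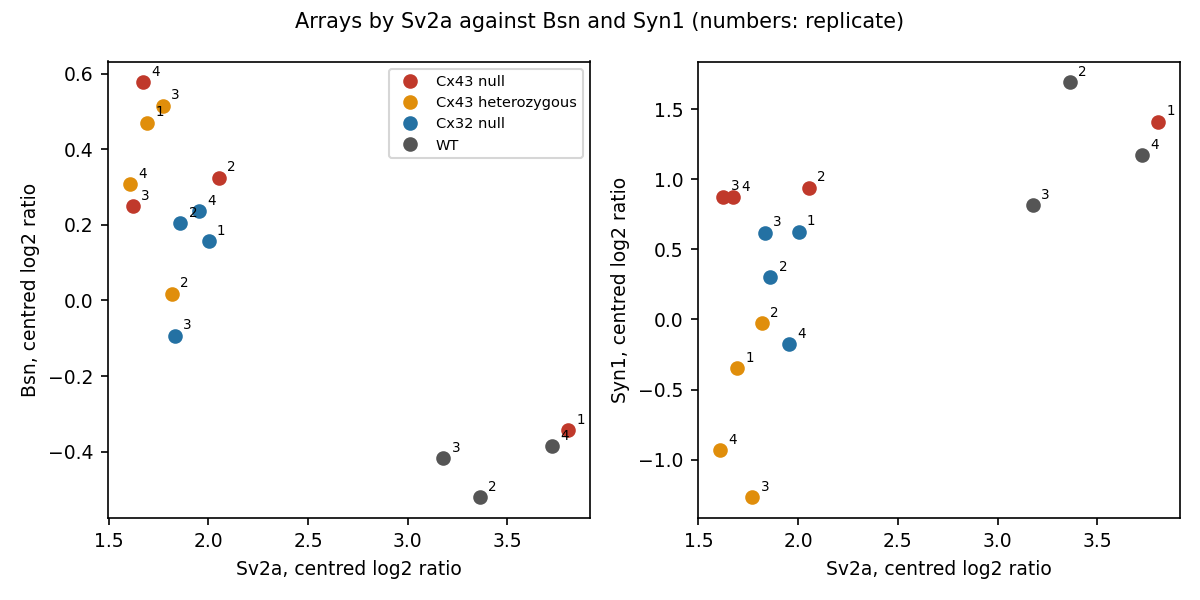
Each point is 1 array, plotted by its centred log2 ratio of Sv2a (x axis) and of Bsn (left) or Syn1 (right), coloured by genotype and numbered by replicate; WT array 1 is missing because it has no Sv2a value. Cx43 null array 1 (Sv2a 3.80, Bsn -0.34) lies beside WT array 4 (3.72 and -0.39), apart from the other arrays of the lines.

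Other named genes followed these profiles over the arrays, as measured by Pearson's r with each of the named genes that have a value on all 16 arrays (6757 with the members left out). Arrays of 1 genotype share that genotype, so r is a description. For Syn1 the 5 most alike were Itih1 (r = 0.92), Smyd1 (0.90), Gprc5a (0.89), F11r (0.88) and Wfdc2 (0.88) over 16 arrays. All 5 had group means below 0, for example -2.38 in Cx43 null, -3.81 in Cx43 heterozygous, -2.75 in Cx32 null and -2.21 in WT brain for Itih1, which encodes a secreted inhibitor heavy chain made in liver. Smyd1 is a methyltransferase of heart and skeletal muscle. For Sv2a they were Ptov1 (0.98), Trim28 (0.98), Cdc42 (0.97), Smim6 (0.97) and Dync1h1 (0.97) over the 15 arrays with an Sv2a value. Cdc42 is a small GTPase of the actin cytoskeleton and Dync1h1 the heavy chain of the dynein motor. For Bsn they were Tcf3 (0.91), Atad2b (0.90), Fbxo21 (0.90), Adgrg1 (0.89) and Preb (0.88), among which Tcf3 encodes a transcription factor of the E protein family. After subtracting the group means, r stayed between 0.85 and 0.94 for the Sv2a list, between 0.68 and 0.85 for the Bsn list and between 0.39 and 0.81 for the Syn1 list.

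The paralogs Syn2, Syn3, Sv2b, Sv2c and Pclo have no spot with their name alone. Of 119 other presynaptic genes listed, 54 were measured: 5 vesicle-associated proteins, 12 vesicle membrane proteins, 11 active zone scaffold or channel proteins, 8 proteins of the fusion machinery and 18 of vesicle recycling. These were tested with limma together with all 14292 transcripts. A gene passed when its p, adjusted by Benjamini and Hochberg's method, was under 0.05.

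In Cx43 null brain 2 of the 54 genes rose and 2 fell relative to WT. Over all transcripts 10.8% passed, 4.37% as higher and 6.43% as lower, against 3.7% and 3.7% in the list, whose median log2 change was 0.03 (0.01 over all transcripts). Slc32a1, the vesicular transporter of GABA and glycine, rose 2.10-fold (log2 change 1.07 ± 0.21 SE, limma adjusted p = 0.0105), with values of 1.11 to 2.06 on the null arrays and 0.16 to 0.75 on the WT arrays. Vapb, a membrane protein of the endoplasmic reticulum, rose by 0.77 ± 0.24 (adjusted p = 0.0459), and passed in 10 of 27 alternatives. Clathrin heavy chain, Cltc, which coats endocytic vesicles, fell 2.33-fold (-1.22 ± 0.28, adjusted p = 0.0179), and Napa, the alpha-SNAP that helps to take SNARE complexes apart, fell by 0.98 ± 0.27 (adjusted p = 0.0312). The null and WT ranges of Vapb, Cltc and Napa overlap. No vesicle-associated or active zone gene passed (5 and 11 measured). The count of 4 was 11 without Cx43 null replicate 1, 8 without WT replicate 4 and 1 without Cx43 null replicate 3. It was also 2 without Cx43 null replicate 2 or 4 or WT replicate 1 or 2. In each of these settings the share of all transcripts passing, 10.8% with all arrays, moved in the same direction as the count. Whether these swings were particular to the list was not tested. Without WT replicate 3 the count was 6, although the share of all transcripts was below 10.8%.

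In Cx43 heterozygous brain 7 of the 54 rose and 8 fell. Over all transcripts 31% passed, 13.5% as higher and 17.5% as lower, against 13% and 14.8% in the list, with a median change of 0 in the list and -0.02 over all. The active zone group held most of the rises: 5 of 11 genes rose and 1 fell, with a median change of 0.65. The array medians of this group overlapped, at 1.22 to 1.68 in Cx43 heterozygous and 0.71 to 1.27 in WT brain. Erc2, a scaffold that binds bassoon, rose 2.89-fold (1.53 ± 0.55, adjusted p = 0.0461, n = 3 WT arrays), and Cacna1a, the pore subunit of the P/Q-type calcium channel, rose by 0.89 ± 0.32 (adjusted p = 0.0428). Both overlap WT, and Erc2 passed in 13 of 26 alternatives (highest adjusted p = 0.178) and Cacna1a in 15 of 27 (0.138). Ppfia4, a liprin-alpha, rose by 0.78 ± 0.16 (adjusted p = 0.00245), with values of 1.13 to 1.33 on the heterozygous arrays and 0.24 to 0.71 on the WT arrays. Erc1 (0.76, limma adjusted p = 0.00496) and Rims3 (0.71, limma adjusted p = 0.0323) complete the 5 and were named after their values were seen. For these genes no count of alternatives passed is given in this line. At least 1 Erc1 spot lies in a stretch of the table where 1 or more arrays lost their correlation with the rest. Ptprs, a receptor phosphatase that binds proteoglycans, fell by 1.04 ± 0.26 (adjusted p = 0.0071).

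In the vesicle membrane group of heterozygous brain 1 of 12 rose and 2 fell. Slc32a1 rose 1.98-fold (0.98 ± 0.21, adjusted p = 0.00315). Syt11, a synaptotagmin that does not bind calcium, fell 2.66-fold (-1.41 ± 0.27, adjusted p = 0.00161, n = 3 WT arrays), with values of 0.87 to 1.16 on the heterozygous and 2.26 to 2.71 on the WT arrays. Syt1, the calcium sensor of fast release, fell 2.30-fold (-1.20 ± 0.30, adjusted p = 0.00763), with ranges that overlap. Of 18 recycling genes 3 fell and 0 rose, namely Hspa8 (-1.76 ± 0.33, adjusted p = 0.0012), which uncoats clathrin vesicles, Cltc (-1.48 ± 0.28, adjusted p = 0.00131) and the epsin Epn2 (-0.45 ± 0.15, adjusted p = 0.035). Epn2 passed in 16 of 27 alternatives (highest limma adjusted p = 0.208). In the fusion group Napa fell by 1.34 ± 0.27 and Nsf, the ATPase that acts with it, by 0.99 ± 0.35, while Vapb rose by 0.84 ± 0.24. The ranges of Nsf and Vapb overlap WT, and Nsf passed in 15 of 27 alternatives (highest limma adjusted p = 0.108). None of the 5 vesicle-associated genes passed in any line, among them Rab3a, a vesicle GTPase, at -0.01, and Dnajc5, the cysteine string protein, at -0.61 in heterozygous brain.

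In Cx32 null brain 5 of the 54 rose and 8 fell. Over all transcripts 27.3% passed, 13.1% as higher and 14.3% as lower, against 9.26% and 14.8% in the list, with medians of -0.08 and -0.03. Among vesicle membrane genes 1 of 12 rose and 3 fell: Slc32a1 was 1.78-fold higher (0.83 ± 0.21, adjusted p = 0.00984), and Syt11 (-1.32 ± 0.27), Syt1 (-1.02 ± 0.30) and the proton pump subunit Atp6v0a1 (-0.99 ± 0.35) were lower. The Cx32 null and WT ranges of Syt1 and Atp6v0a1 overlap. Syt1 passed in 22 of 27 alternatives and Atp6v0a1 in 15 of 27 (highest limma adjusted p = 0.0851 and 0.154). In the active zone group Erc1 rose by 0.82 ± 0.18 and Ptprs fell by 0.96 ± 0.26, and 9 of 11 did not pass. In the fusion group Vapb (0.87 ± 0.24) and Snap29 (0.78 ± 0.25), a SNARE of many membranes, rose, while Napa (-1.15 ± 0.27) and Nsf (-1.11 ± 0.35) fell. Snap29 passed in 21 of 27 alternatives and Nsf in 19 of 27. Among recycling genes Itsn2, an endocytic scaffold, rose by 0.50 ± 0.14, and Hspa8 (-1.66 ± 0.33) and Cltc (-1.35 ± 0.28) fell.

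**Figure D4:**
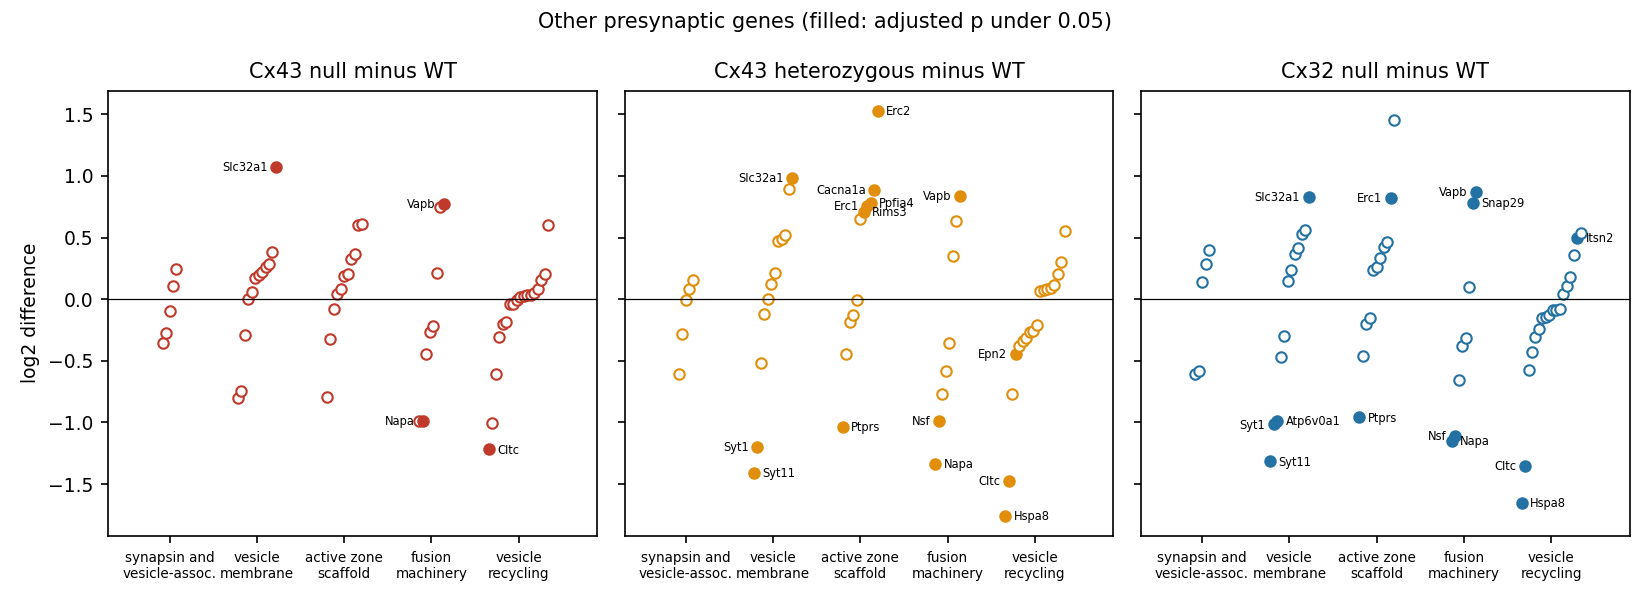
Fitted log2 difference from WT (y axis) of 54 presynaptic genes other than Syn1, Sv2a and Bsn, by role (x axis), in Cx43 null, Cx43 heterozygous and Cx32 null brain; filled points passed at an adjusted p under 0.05 and are named. The numbers passing were 4, 15 and 13, and the active zone genes of heterozygous brain had a median of 0.65.

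Slc32a1 was read by 2 spots, and with 1 spot per gene its change was 0.30 in Cx43 null, 0.33 in Cx43 heterozygous and 0.37 in Cx32 null brain and no longer passed (limma adjusted p = 0.263, 0.166 and 0.129). Napa and 1 or more spots of Erc1 lie in stretches of the table where 1 or more arrays lost their correlation with the rest, while no Syn1, Sv2a or Bsn spot does. Without such spots Erc1 in Cx32 null brain was at 0.49 and did not pass (limma adjusted p = 0.057). With values as deposited the split in heterozygous brain was 13 higher and 6 lower, as under cyclic loess, 9 and 6 under quantile scaling, but 7 and 13 with 1 spot per gene. In Cx32 null brain it was 10 and 7 under cyclic loess, 9 and 5 under quantile scaling, 7 and 7 as deposited and 5 and 14 with 1 spot per gene. In Cx43 null brain it was 3 and 1 under quantile scaling, 1 and 4 as deposited and 2 and 4 with 1 spot per gene.

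Markers of other cell types were measured on the same arrays, and whole brain cannot tell fewer cells of a type from less RNA per cell. Of 15 neuron markers 1 rose and 1 fell in Cx43 null, 2 and 2 in Cx43 heterozygous and 2 and 2 in Cx32 null brain, where 10.8%, 31% and 27.3% of all transcripts passed. Their array medians ran from 2.20 to 2.52 in Cx43 null, 1.95 to 2.33 in Cx43 heterozygous, 2.10 to 2.26 in Cx32 null and 2.07 to 2.66 in WT brain, so all lines overlapped WT. The median of 7 astrocyte and radial glia markers, Gja1 among them, was -0.52 to 0.12 in Cx43 null, -0.38 to 0.04 in Cx43 heterozygous, -0.22 to 0.13 in Cx32 null and 0.48 to 1.17 in WT brain, and here the median of every line array lay below WT. Of these 7 markers 1 fell in Cx43 null brain, Gja1 itself. In Cx43 heterozygous brain 3 fell, Gja1 among them, and 1 rose, Fabp7, a radial glia fatty acid binding protein (0.81, limma adjusted p = 0.0228). In Cx32 null brain, where Gja1 is not the targeted gene, 2 fell. These were Gja1 (-1.455, limma adjusted p = 0.00986) and Aldoc (-0.838, limma adjusted p = 0.0149). The median of 5 red blood cell markers was -2.76 to -1.18, -2.28 to -1.67 and -1.96 to -1.54 in Cx43 null, Cx43 heterozygous and Cx32 null brain, against -1.55 to -0.39 in WT brain. The median of 12 markers of the reference tissues was -5.59 to -4.61, -6.08 to -4.88 and -5.70 to -4.49 in the same lines, against -4.66 to -4.16 in WT brain. Markers of microglia (8), endothelium and pericytes (7), meninges and choroid plexus (10) and oligodendrocytes (2) had medians below 0 on every array of every genotype. Of the 2 oligodendrocyte markers, Mbp fell in Cx43 heterozygous (-0.84, limma adjusted p = 0.019) and Cx32 null brain (-0.725, adjusted p = 0.0418). The other, Pdgfra, passed in no line and was above WT in both of these. It was at -0.24 in Cx43 null, 0.33 in Cx43 heterozygous and 0.146 in Cx32 null brain (limma adjusted p = 0.602, 0.394 and 0.73). Among endothelium and pericyte markers only Slc2a1 passed in Cx43 null (0.73, adjusted p = 0.0353) and only Cldn5 in Cx43 heterozygous brain (0.89, adjusted p = 0.0197), both as higher. Of the meninges and choroid plexus markers 3 of 10 fell in each line, Ptgds, Dcn and Aqp1, with Ptgds at -2.15 in Cx43 null, -1.50 in Cx43 heterozygous and -1.65 in Cx32 null brain (limma adjusted p = 0.00974, 0.0112 and 0.00826). Of 8 microglia markers the complement genes C1qa and C1qb fell in each line, C1qa by 1.34, 1.90 and 1.76 (adjusted p = 0.0359, 0.00192 and 0.00424). C1qa and Dcn each have 1 spot, and both spots lie in stretches of the table where 1 or more arrays lost their correlation with the rest. In Cx43 heterozygous brain 3 other microglia markers (Itgam, Tyrobp and Ctss) and the meninges and choroid plexus marker Igf2 rose, and in Cx32 null brain Itgam rose. The part of these shifts in the values of Syn1, Sv2a and Bsn was not tested.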

How the data were processed

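Brain RNA of 16 samples in 4 genotypes was compared on 2-colour cDNA arrays. The authors deposited 1 log ratio for each spot of each array, read here as log2, the usual base for such arrays, with values from -8.1 to 7.07. Cy3 marked brain cDNA and Cy5 the pooled reference, per the labels, except that the labels of WT replicates 3 and 4 name only the reference dye. The base, the numerator and the normalization within arrays are not given in the sources used here. Spots without a value are empty, and no intensities were used. If the values were natural logarithms, every fold would be larger.

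Spots were named through the platform's gene identifiers with RefSeq symbols: 18267 in this way, 244 as the platform gives them, while 937 spots list several genes and 9256 have no entry. Array medians between -0.13 and 0.28 were subtracted, so that every array has a median of 0. A spot was kept with at least 3 of 4 values in every group (19951 spots), and spots of 1 gene were averaged, giving 14292 transcripts, of which 8654 are named genes. A model with 1 mean per group was fitted over the 16 arrays by limma 3.58.1 in R 4.3.3 (lmFit, eBayes, 2-sided), with Benjamini-Hochberg adjustment over all transcripts and a threshold of 0.05; a standard error rests on 1 spread shared by the 4 groups. A run of 150 table rows was called out of step where an array's median correlation with the others fell by more than 0.2 below its usual level (13 of 192 runs).

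The members and lists were chosen with earlier results of these data known. The text names the 3 members, up to 3 passing genes per direction, role and comparison, and the 5 genes most alike to each member. Alternatives changed the scaling, the filter, the spot used, the runs out of step, the array weights, the arrays fitted and the block. Promoter sequences are from RefSeq (GRCm38.p6), and all 3 genes matched.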

Additional observations from a re-analysis of the deposited data

Results flagged for a closer look

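Groups of 4 values were searched for an array that stands apart by Dixon's criterion at the 95% level, which chance meets in about 1 group in 20. Of 84 groups listed, those of Sv2a and of Bsn spot 18984 in WT brain had 3 values and were not searched. The criterion was met in 3 groups. Syn1 on Cx43 null array 1, at 1.41, stood above the other Cx43 null arrays. The median of the astrocyte and radial glia markers on WT array 1, at 1.17, stood above the other WT arrays. The median of the presynaptic list without Syn1, Sv2a and Bsn on Cx43 heterozygous array 3, at 0.92, stood above the other heterozygous arrays.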

How the results depend on the processing

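The differences of Syn1, Sv2a and Bsn from WT kept their direction under the 26 or 27 alternatives run for each, except Syn1 in Cx43 null brain, which was 0.02 under quantile scaling. Many of these alternatives could not move a member's difference, such as leaving out an array of a group not compared or fitting only the 2 groups compared. The number of alternatives is therefore no measure of how firm these differences are. Sv2a in Cx43 null brain was -1.64 without Cx43 null replicate 1, the same with WT replicate 1 also left out (an alternative chosen after seeing the data), and -1.64 to -0.91 over single arrays left out; Sv2a could not be fitted from spots with all 16 values. Without centring, the median change over all transcripts was 0.15 in Cx43 heterozygous brain, where Bsn was 0.98, Syn1 -1.76 and Sv2a -1.57. The count of presynaptic genes passing was 4 in Cx43 null brain, 1 to 11 over single arrays left out, 11 without both first replicates and 26 with array weights. The share of all transcripts passing was also lower than with all arrays where this count was 1, and higher where it was 11. With only the 2 groups compared, limma passed 0 presynaptic genes in Cx43 null brain, where 10 had an unadjusted p under 0.05 and 0 of all transcripts passed. The count in Cx43 heterozygous brain was 28 with array weights (10 to 17 over single arrays left out). In Cx32 null brain it was 26 with array weights, 8 with only the 2 groups compared and 10 to 14 over single arrays left out. Array weights raised the share of all transcripts passing to 39.2%, 47.6% and 44.4% in Cx43 null, Cx43 heterozygous and Cx32 null brain. The groups share replicate numbers, but same-numbered arrays did not deviate together (correlations of deviations with WT from -0.096 to 0.162), and with the replicate number as a block the counts were 7, 14 and 13. Of the presynaptic genes named by the rule, 0 of 4, 7 of 13 and 5 of 13 passed under every alternative that could be fitted. The cause of these changes was not tested.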

Other observations

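Of 14 measured postsynaptic genes, 1 rose and 0 fell in Cx43 null, 2 rose and 3 fell in Cx43 heterozygous and 2 rose and 3 fell in Cx32 null brain (limma, adjusted p under 0.05), near the 10.8%, 31% and 27.3% of all transcripts that passed, with median log2 changes of -0.19, -0.13 and -0.41. Dlgap3, a scaffold of the postsynaptic density, rose in all 3 lines, by 0.63, 0.90 and 1.05 (adjusted p = 0.0288, 0.00121 and 0.000809). Gabra3, a GABA-A receptor subunit, was at -0.52 in Cx43 null brain (adjusted p = 0.0794), and fell by 1.05 in Cx43 heterozygous and by 0.69 in Cx32 null brain (adjusted p = 0.000708 and 0.00997). Arc, an activity-regulated gene, was at -0.70 in Cx43 null brain (adjusted p = 0.117) and fell by 0.90 in Cx43 heterozygous and by 1.41 in Cx32 null brain (adjusted p = 0.0198 and 0.00237). Among neuron markers, the adhesion molecule L1cam rose by 0.73, 0.65 and 0.71 in Cx43 null, Cx43 heterozygous and Cx32 null brain, and the secretogranin Scg3 fell by 0.72, 0.82 and 0.70. These genes were named after their values were seen.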
